A study of Mus musculus with 16 samples.

Results

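The genes described here encode the nuclear subunits of mitochondrial respiratory complexes II, III and IV and of ATP synthase (complex V), together with cytochrome c. They were chosen by symbol alone: Sdha, Sdhb, Sdhc, Sdhd, Cyc1, Cycs and every gene whose symbol begins with Uqcr, Cox4, Cox5, Cox6, Cox7, Cox8 or Atp5. Of 18193 genes that had a probe set with 1 gene symbol, 48 met this rule, and each is represented by its probe set of highest mean over the 16 arrays. They comprise 4 genes of complex II, 9 of complex III, cytochrome c, 17 of complex IV and 17 of complex V. One gene caught by the prefix, Cox7a2l, encodes a factor that joins complexes III and IV into supercomplexes rather than a core enzyme subunit, and it was counted with complex IV. The 45 genes over a level of 4 log2 on at least 4 arrays were tested. Cox4i2, Cox7b2 and Cox8c lay under that level on every array.

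In these complexes electrons from succinate (complex II) and from ubiquinol (complex III) pass through cytochrome c to oxygen at complex IV, and the proton gradient that complexes III and IV build drives ATP synthesis at complex V. Neurons depend on this pathway for the ion pumping that follows synaptic activity. Complexes III, IV and V each combine these nuclear-encoded subunits with a few subunits encoded in mitochondrial DNA, and several nuclear subunits of complex IV exist as tissue-specific isoforms from separate genes.

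The promoters of 5 genes are shown because the results below turn on them: Cox8a and Cox8b, the general and the heart and muscle isoform of the same complex IV subunit, and Atp5md, Atp5k and Atp5g1, the ATP synthase genes with the smallest p values. Each window runs 5′ to 3′ on the gene's own strand, from 250 bases before to 30 bases after the RefSeq start on GRCm38.p6, and the capitals mark matches on either strand to 6 motifs.
Cox8a, chr19:7217587-7217866, minus strand: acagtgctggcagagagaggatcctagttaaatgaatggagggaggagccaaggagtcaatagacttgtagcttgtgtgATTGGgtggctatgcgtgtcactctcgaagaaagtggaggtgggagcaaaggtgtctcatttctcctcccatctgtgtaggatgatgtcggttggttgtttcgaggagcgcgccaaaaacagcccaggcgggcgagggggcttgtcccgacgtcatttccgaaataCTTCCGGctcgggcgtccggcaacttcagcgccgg
Cox8b, chr7:140900417-140900696, minus strand: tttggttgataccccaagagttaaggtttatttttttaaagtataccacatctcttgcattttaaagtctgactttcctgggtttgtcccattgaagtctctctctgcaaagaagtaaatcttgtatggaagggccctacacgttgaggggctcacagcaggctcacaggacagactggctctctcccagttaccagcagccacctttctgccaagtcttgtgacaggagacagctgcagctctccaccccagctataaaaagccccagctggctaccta
Atp5md, chr19:47090618-47090897, minus strand: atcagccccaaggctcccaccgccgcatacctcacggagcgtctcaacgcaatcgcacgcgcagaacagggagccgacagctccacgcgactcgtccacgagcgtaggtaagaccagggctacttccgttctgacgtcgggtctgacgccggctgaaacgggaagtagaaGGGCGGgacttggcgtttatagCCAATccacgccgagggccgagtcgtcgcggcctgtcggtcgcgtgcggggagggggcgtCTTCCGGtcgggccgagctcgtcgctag
Atp5k, chr5:108434370-108434649, minus strand: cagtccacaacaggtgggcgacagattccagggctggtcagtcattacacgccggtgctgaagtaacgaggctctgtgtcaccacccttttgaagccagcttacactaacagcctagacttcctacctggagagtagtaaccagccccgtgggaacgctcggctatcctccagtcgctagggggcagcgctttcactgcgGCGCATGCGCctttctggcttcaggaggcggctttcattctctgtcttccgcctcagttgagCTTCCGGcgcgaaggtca
Atp5g1, chr11:96075602-96075881, minus strand: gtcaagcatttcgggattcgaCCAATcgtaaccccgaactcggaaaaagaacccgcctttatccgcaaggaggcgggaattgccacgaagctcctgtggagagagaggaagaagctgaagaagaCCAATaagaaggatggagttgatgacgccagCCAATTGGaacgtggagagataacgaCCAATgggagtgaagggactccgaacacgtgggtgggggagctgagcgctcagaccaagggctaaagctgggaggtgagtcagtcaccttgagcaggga
The motifs searched were GCGCA followed at once by TGCGC for NRF1, CCGGAAG for ETS factors, TGACGTCA for CREB, TCAAGGTCA for ERR, GGGCGG for SP1 and CCAAT. RefSeq promoters were matched for 36 of the 48 genes. The ETS letters stood in 13 of those 36 (36.1%) and in 9.48% of the 27025 genes with a window of the same length. The NRF1 letters stood in 3 of 36 (8.33%) against 1.02%, those of CREB in 2 (5.56%) against 1.99%, and those of ERR in 1 (2.78%) against 0.459%. The SP1 letters stood in 14 (38.9%) against 37.3%, and CCAAT in 20 (55.6%) against 39.7%. Of the promoters shown, those of Cox8a, Atp5md and Atp5k hold the ETS letters on the reverse strand (CTTCCGG), and that of Atp5k also holds the NRF1 letters. The Atp5g1 window holds 5 CCAAT matches on the 2 strands, of which 1 pair overlaps. The Cox8b window holds no match and 1 CG pair, the lowest number among the 36 genes, where the median was 17 CG pairs and the median of all genes was 7. A match of letters is a description of the window and not a bound site.

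The hippocampus of 16 males, each 12 months old, was profiled on 16 Affymetrix arrays, 1 mouse to an array and 4 to each of 4 groups. SAMP8 is a senescence-accelerated line with memory deficits at this age. Control mice were untreated and came from backcrossing SAMP8 with the CD-1 stock (50% SAMP8), so they are close relatives without the deficit rather than an unrelated strain. The other groups were untreated SAMP8 mice, SAMP8 mice injected intravenously with an oligonucleotide of random sequence (Random antisense), and SAMP8 mice injected by the same route with an antisense oligonucleotide directed at AβPP, the amyloid beta precursor protein. Doses and numbers of injections are not given in the sources used here. The comparisons ask what differs between the lines (SAMP8 minus Control), what the injection of a random sequence does (Random antisense minus SAMP8) and what the AβPP sequence adds (AβPP antisense minus Random antisense), and AβPP antisense minus SAMP8 was added. They share arrays, so their values are not independent. Values are log2 levels after GCRMA, and a difference of 1 is a doubling. They can be compared between arrays for 1 probe set but not between probe sets. Each array carries RNA of the whole hippocampus, so fewer cells of a type and less RNA per cell cannot be told apart.

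All 7 listed hippocampal genes were over the filter on every array. Their mean was 7.47 on AβPP antisense 2 and 7.51 on AβPP antisense 4, against 8.21 to 9.29 on the other arrays. The brightest probe set of App, the target of the antisense, had a mean of 14.16 ± 0.19 (SD, n = 4) in mice given the AβPP sequence and 14.38 ± 0.04 in those given the random one, a difference of -0.22 with an adjusted p of 0.503 in limma. The groups did not overlap (two-sided exact permutation p = 0.0286, which is as small as 4 arrays a group can give). Some arrays stood apart. Control 4 had a mean of 11.99 log2 over 5 leukocyte genes, against 6.002 to 7.49 on the other 15 arrays, and a median correlation of 0.92 with the others. AβPP antisense 4 had a correlation of 0.90 and a 3′ minus 5′ difference of the beta-actin control probe sets of 3.89, against 0.84 to 1.60 elsewhere. Random antisense 1 is placed in its group by its title and description, but its treatment label says that it was not treated. For several genes described below the difference of group means is also given with 1 of these arrays left out or relabelled.

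No subunit gene passed the threshold (limma, adjusted p under 0.05 over all 23905 probe sets tested) in any comparison. In SAMP8 minus Control 0 of 45 were called, where 0.36% of all probe sets were, and the smallest adjusted p was 0.999. In AβPP antisense minus Random antisense 0 of 45 were called against 0.0837%, with a smallest adjusted p of 0.292. In Random antisense minus SAMP8 0 of 45 were called against 0% of all. In AβPP antisense minus SAMP8 0 of 45 were called against 0.289%, with a smallest adjusted p of 0.121 for Atp5g1. The F test over the 4 groups called 0 of 45 against 0.849%. At an unadjusted p under 0.05 the members numbered 1, 9, 1 and 9 in the same order and 5 in the F test, where 4.38%, 12.3%, 1.12%, 14.7% and 14% of all probe sets lay under it. Without moderation of the spread 1 gene was called in AβPP antisense minus SAMP8 and in the F test, where 0.13% and 0.556% of all probe sets were. With array weights the F test called 9 of 45, where it called 10.1% of all.

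How small the differences were can be read from the 38 genes whose mean was over 11 log2, whose median SE was 0.11. In SAMP8 minus Control the 95% intervals of all 38 lay within 0.5 log2 of 0 on either side, the outermost bounds being -0.49 for Atp5g2 and 0.50 for Cox8a. In Random antisense minus SAMP8 37 of the 38 intervals did so, in AβPP antisense minus SAMP8 33, and in AβPP antisense minus Random antisense 30. The widest bounds of the last were -0.58 for Atp5b and 0.72 for Atp5k. A p over the threshold does not show that the groups were alike, and these bounds give the size that the arrays leave room for.

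**Figure D1:**
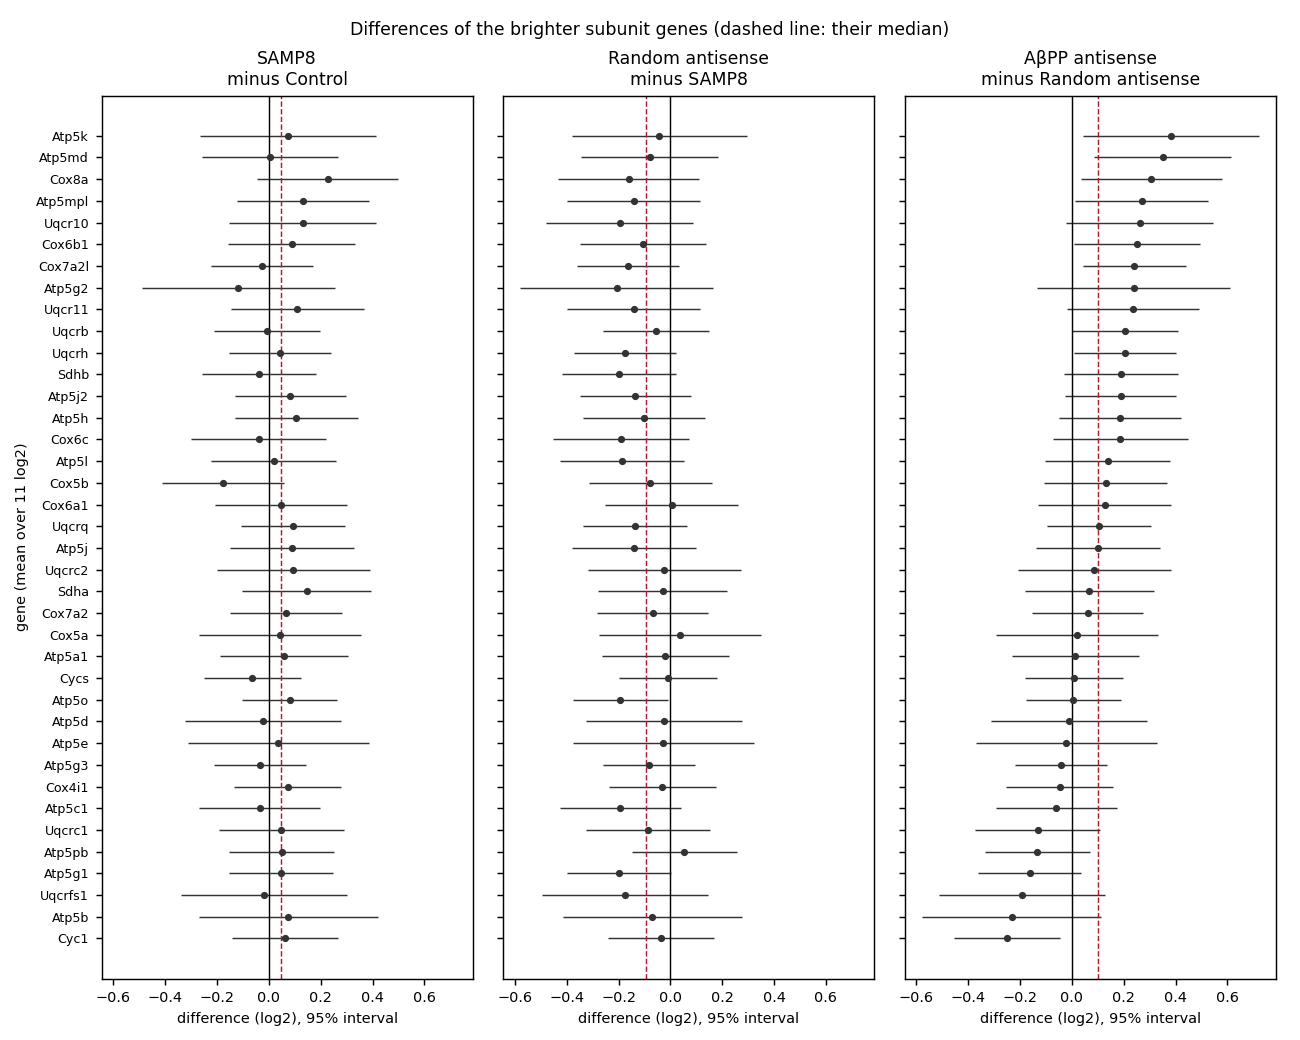
Differences between groups (x axis, log2) for the 38 subunit genes of mean over 11 log2 (rows, in 1 order in all panels), with 95% intervals from limma as lines and the median of these genes as a dashed line. The intervals of all 38 genes lie within 0.5 log2 of 0 in SAMP8 minus Control, and the points lie mostly left of 0 in Random antisense minus SAMP8.

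Complex II oxidises succinate. Sdha carries the flavin and Sdhb the iron-sulfur clusters, and Sdhc and Sdhd anchor the enzyme in the inner membrane. Sdhc read 11.17, 11.16, 10.93 and 10.58 on Control arrays 1 to 4 and 10.60, 10.64, 10.75 and 10.91 on those of untreated SAMP8. The difference of -0.24 (SE 0.14) had an adjusted p of 0.999, and the low Control 4 overlapped SAMP8; without that array it was -0.365. Sdhc read 10.69, 10.86, 10.84 and 10.76 after Random antisense and 10.44, 10.83, 10.56 and 10.49 after AβPP antisense, a difference of -0.21 (SE 0.14, adjusted p = 0.578). These last groups overlap through the second AβPP antisense mouse.

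Sdhd read 10.24, 10.20, 10.27 and 10.25 in SAMP8 mice and 9.86, 10.10, 10.11 and 9.93 after Random antisense. Every Random antisense value lay under every SAMP8 value, with a difference of -0.24 (SE 0.12, adjusted p = 1), or -0.12 with Random antisense 1 counted as untreated. After AβPP antisense it read 10.26, 9.92, 10.04 and 9.64, and in Control 10.29, 10.27, 10.15 and 10.34. Sdhb showed the same lack of overlap between Random antisense and SAMP8 (-0.20, SE 0.10, adjusted p = 1), with 12.02 ± 0.12 (SD, n = 4) against 12.22 ± 0.08, and its difference was -0.07 with Random antisense 1 counted as untreated. Sdha differed by -0.03 (SE 0.12) there and by 0.15 (SE 0.12, adjusted p = 0.999) between SAMP8 and Control, or 0.05 without Control 4. Second probe sets gave -0.12 (SE 0.19) for Sdha and 0.10 (SE 0.15) for Sdhd in Random antisense minus SAMP8. In AβPP antisense minus SAMP8 the second Sdha probe set gave -0.40 (SE 0.19, adjusted p = 0.335), where the brightest gave 0.04. It was lowest on AβPP antisense 4, at 10.83.

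Complex III passes electrons from ubiquinol to cytochrome c. Cyc1, its cytochrome c1 haem subunit, had the smallest p among the genes that were lower after AβPP antisense than after Random antisense. Its arrays 1 to 4 read 12.39, 12.56, 12.43 and 12.31 after AβPP antisense and 12.53, 12.75, 12.65 and 12.76 after Random antisense. The difference was -0.25 (SE 0.10, adjusted p = 0.325), and the groups overlapped only between AβPP antisense 2 and Random antisense 1. Untreated SAMP8 read 12.80, 12.70, 12.65 and 12.69 and Control 12.72, 12.67, 12.68 and 12.52. Against untreated SAMP8 the AβPP antisense values did not overlap, with a difference of -0.29 (SE 0.10, adjusted p = 0.201).

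The Rieske iron-sulfur subunit Uqcrfs1 also lay lower after AβPP antisense than in untreated SAMP8, with 11.74, 11.57, 11.65 and 10.98 against 11.88, 11.76, 11.99 and 11.80. The difference was -0.37 (SE 0.15, adjusted p = 0.276), and the lowest value came from AβPP antisense 4, the array with the large 3′ minus 5′ difference. Without that array the difference was -0.20. After Random antisense Uqcrfs1 read 11.63, 11.78, 11.70 and 11.61, which differed by -0.175 from SAMP8. AβPP antisense minus Random antisense was -0.19, and -0.025 without AβPP antisense 4. The small subunit Uqcrb read 14.07, 14.07, 13.91 and 14.23 after AβPP antisense, against 13.83, 13.92, 13.85 and 13.85 after Random antisense. Its untreated SAMP8 mice read 13.93, 13.96, 13.96 and 13.83, and its Control mice 13.97, 13.90, 14.03 and 13.81. It was 0.20 (SE 0.10, adjusted p = 0.403) above Random antisense and 0.15 (SE 0.10, adjusted p = 0.484) above SAMP8, or 0.10 above SAMP8 without AβPP antisense 4 and 0.06 with the 3′ minus 5′ difference of beta-actin as a covariate. For the hinge protein Uqcrh every AβPP antisense value lay above every Random antisense value (0.20, SE 0.09, adjusted p = 0.391). Of the 9 complex III genes, 6 were higher and 3 lower after AβPP antisense than after Random antisense, the 3 lower being Cyc1, Uqcrfs1 and the core protein gene Uqcrc1.

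Cytochrome c, encoded by Cycs, carries electrons between complexes III and IV. It read 13.47, 13.57, 13.62 and 13.51 in Control, 13.52, 13.53, 13.48 and 13.39 in SAMP8, 13.39, 13.50, 13.52 and 13.47 after Random antisense and 13.56, 13.43, 13.52 and 13.39 after AβPP antisense. The differences of this probe set lay between -0.06 and 0.01 in the 4 comparisons (SE 0.09). Another bright Cycs probe set gave -0.35 (SE 0.15, adjusted p = 0.29) in AβPP antisense minus SAMP8. In Random antisense minus SAMP8 that probe set gave -0.20 (SE 0.15). The remaining tested Cycs probe sets gave -0.12 (SE 0.10) and -0.09 (SE 0.26) in AβPP antisense minus SAMP8.

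Complex IV reduces oxygen. Its catalytic core is encoded in mitochondrial DNA, and those core genes were not matched to a probe set here. The nuclear subunits Cox5a and Cox5b surround the core. Cox5b read 14.25, 13.98, 14.02 and 13.73 in Control and 13.85, 13.78, 13.90 and 13.75 in SAMP8, a difference of -0.18 (SE 0.11, adjusted p = 0.999), and of -0.27 without Control 4. After Random antisense it read 13.69, 13.82, 13.72 and 13.73 and after AβPP antisense 13.81, 13.90, 13.78 and 14.001. Control 4 was again the low Control array. Cox5a read 13.90, 13.89, 14.001 and 13.67 in Control, 13.94, 13.96, 13.84 and 13.88 in SAMP8 and 13.94, 13.95, 13.95 and 13.95 after Random antisense. After AβPP antisense it read 13.77, 14.01, 13.62 and 14.45, so that its SD grew to 0.36 while its mean lay 0.02 (SE 0.15) above Random antisense, and -0.14 from it without AβPP antisense 4.

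Cox7a2l, the supercomplex factor, had the smallest p of complex IV in AβPP antisense minus Random antisense. It read 11.94, 11.69, 11.76 and 11.75 after AβPP antisense and 11.52, 11.61, 11.52 and 11.54 after Random antisense, with no overlap and a difference of 0.24 (SE 0.09, adjusted p = 0.326). Its SAMP8 arrays read 11.77, 11.62, 11.78 and 11.67 and its Control arrays 11.72, 11.66, 11.70 and 11.86. The Random antisense mice were the low group, all under all SAMP8 mice (-0.16, SE 0.09, adjusted p = 1), and AβPP antisense lay 0.08 (SE 0.09) above untreated SAMP8. The other 2 tested probe sets of Cox7a2l gave 0.31 (SE 0.11) and 0.30 (SE 0.13) for AβPP antisense minus Random antisense.

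Several complex IV subunits have isoform genes. Cox4i1 ranged from 14.36 to 14.68 over the 16 arrays, and its largest difference of the 4 was -0.08 (SE 0.10) for AβPP antisense minus SAMP8. Cox4i2, the isoform known from lung, stayed between 1.97 and 2.27. Cox6a1 had group means of 14.81 ± 0.21 (SD, n = 4) in Control, 14.86 ± 0.06 in SAMP8, 14.86 ± 0.05 after Random antisense and 14.99 ± 0.18 after AβPP antisense. Cox6a2, its heart and muscle isoform, read 5.60, 5.60, 5.99 and 6.51 in Control, 6.24, 5.70, 6.08 and 5.50 in SAMP8, 5.61, 5.43, 5.58 and 5.55 after Random antisense and 5.53, 4.91, 5.46 and 6.78 after AβPP antisense. Its highest values came from Control 4 and AβPP antisense 4.

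Cox6b1 read 14.57, 14.51, 14.37 and 14.70 after AβPP antisense against 14.18, 14.36, 14.31 and 14.30 after Random antisense, with no overlap (0.25, SE 0.11, adjusted p = 0.393). Cox6b2, known as the testis isoform, read 6.13, 5.76, 6.19 and 5.34 in Control and 6.25, 6.20, 6.22 and 6.16 in SAMP8. Control 4 and Control 2 were the low arrays, and the difference was 0.35 (SE 0.20, adjusted p = 0.999), or 0.18 without Control 4. It read 6.35, 5.95, 6.32 and 6.22 after Random antisense and 5.83, 6.26, 5.90 and 6.64 after AβPP antisense. Cox7a2 differed by at most 0.07 (SE 0.10) in any comparison, whereas Cox7a1, its heart and muscle isoform, ranged from 2.85 to 5.33 within the AβPP antisense group alone. Cox7c, whose brightest probe set with 1 symbol had group means of 6.49 to 6.88, differed by 0.38 (SE 0.21, adjusted p = 0.482) between AβPP antisense and Random antisense.

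Cox8a, the general form of the smallest subunit, read 11.76, 11.57, 11.42 and 11.24 in Control and 11.70, 11.68, 11.84 and 11.67 in SAMP8. The difference of 0.23 (SE 0.13) had an adjusted p of 0.999 and was 0.14 without Control 4. Cox8a read 11.39, 11.68, 11.60 and 11.58 after Random antisense and 12.10, 11.85, 11.88 and 11.65 after AβPP antisense, a difference of 0.31 (SE 0.13, adjusted p = 0.361). Only AβPP antisense 4 lay within the Random antisense range.

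Cox8b showed the largest differences of the 45 genes in every comparison. It read 5.003, 4.30, 4.88 and 5.44 on Control arrays 1 to 4 and 6.60, 6.39, 6.68 and 4.92 on SAMP8 arrays. The SAMP8 mice 1 to 3 lay above every Control mouse and the other lay among them, with a difference of 1.24 (SE 0.54, unadjusted p = 0.0356, adjusted p = 0.999). After Random antisense it read 5.14, 4.37, 5.19 and 6.46, and after AβPP antisense 4.23, 2.90, 4.38 and 5.45. AβPP antisense differed by -1.05 (SE 0.54, adjusted p = 0.452) from Random antisense and by -1.91 (SE 0.54, adjusted p = 0.143) from untreated SAMP8, with overlap in both. Without Control 4 and AβPP antisense 4 the last difference was -2.31 with an adjusted p of 0.0487, under the threshold, where 1.68% of all probe sets were.

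Genes of the choroid plexus, the ventricular tissue that secretes cerebrospinal fluid, differed between the groups as well. The mean of 7 choroid plexus genes (Ttr, Folr1, Kcnj13, Kl, Clic6, Aqp1 and Kcne2) was 5.51, 4.53, 5.73 and 6.70 on AβPP antisense arrays 1 to 4, against 7.69, 7.06, 7.78 and 8.26 after Random antisense. It was 7.58, 8.10, 8.84 and 7.92 in SAMP8 and 7.43, 7.52, 8.03 and 7.49 in Control. Of the 7 genes 6 were over the filter, and Aqp1, with group means of 2.27 to 2.78, was not. Within the Random antisense and the AβPP antisense groups the order of the arrays was the same for Cox8b and for the choroid plexus mean, and within Control and SAMP8 it was not. The part of choroid plexus tissue in the Cox8b result was not tested.

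**Figure D2:**
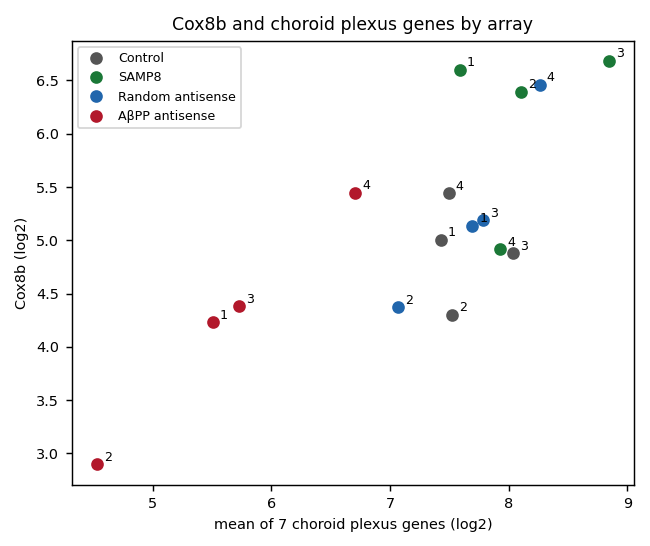
Cox8b (y axis, log2 level) against the mean of 7 choroid plexus genes (x axis, log2) on the 16 arrays, 1 point per mouse, coloured by group and numbered by replicate. The 4 AβPP antisense arrays have the lowest choroid plexus means (4.53 to 6.70), and AβPP antisense 2 is lowest on both axes.

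Complex V couples the proton gradient to ATP synthesis. Its catalytic head is built from the alpha, beta, gamma, delta and epsilon subunits (Atp5a1, Atp5b, Atp5c1, Atp5d and Atp5e), its proton-carrying ring from subunit c (Atp5g1, Atp5g2 and Atp5g3), and the stalk and membrane part from the rest. Atp5g1 had the smallest p of all 45 genes. It read 11.98, 11.81, 11.93 and 11.74 after AβPP antisense and 12.23, 12.15, 12.29 and 12.26 in untreated SAMP8, with no overlap. The difference was -0.36 (SE 0.09, 95% interval -0.56 to -0.16, unadjusted p = 0.00155, adjusted p = 0.121). Random antisense lay between them at 11.92, 12.12, 12.09 and 11.99, under every SAMP8 mouse (-0.20, SE 0.09, adjusted p = 1, or -0.10 with Random antisense 1 counted as untreated), and Control read 12.28, 12.11, 12.16 and 12.19. The values overlapped between the injected groups, which differed by -0.16 (SE 0.09, adjusted p = 0.502). The adjusted p against SAMP8 went under the threshold without AβPP antisense 3 (-0.39, adjusted p = 0.0437), where 5.38% of all probe sets did, and without moderation of the spread (adjusted p = 0.0458), where 0.13% did.

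The other genes for subunit c encode the same mature protein with different import sequences, and they had other patterns. Atp5g2 read 11.49, 11.58, 11.38 and 10.76 after AβPP antisense, 10.90, 11.19, 11.11 and 11.06 after Random antisense, 11.33, 11.23, 11.36 and 11.16 in SAMP8 and 11.40, 11.29, 11.10 and 11.77 in Control. The injected groups differed by 0.24 (SE 0.17, adjusted p = 0.611), with 3 AβPP antisense mice above all Random antisense mice and AβPP antisense 4 under them, and by 0.42 without that array. Atp5g3 read 13.81, 13.88, 13.76 and 13.78 after AβPP antisense, 13.81, 13.90, 13.90 and 13.78 after Random antisense, 13.95, 13.93, 13.96 and 13.89 in SAMP8 and 13.98, 13.97, 14.01 and 13.90 in Control. AβPP antisense minus SAMP8 was -0.13 (SE 0.08, adjusted p = 0.502), with no overlap.

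Atp5md and Atp5k, which encode small subunits at the dimer interface of the enzyme, had the smallest p values among genes higher after AβPP antisense than in untreated SAMP8, and with Cox7a2l against Random antisense. Atp5md read 13.71, 13.45, 13.44 and 13.82 after AβPP antisense and 13.25, 13.38, 13.19 and 13.22 after Random antisense. All AβPP antisense mice lay above all Random antisense mice, with a difference of 0.35 (SE 0.12, adjusted p = 0.292), and of 0.28 without AβPP antisense 4. Its SAMP8 arrays read 13.40, 13.37, 13.31 and 13.26 and its Control arrays 13.53, 13.43, 13.33 and 13.05, so AβPP antisense also stood above SAMP8 (0.27, SE 0.12, adjusted p = 0.329), by 0.14 with the beta-actin 3′ minus 5′ difference as a covariate.

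Atp5k read 13.19, 12.88, 12.89 and 13.73 after AβPP antisense and 12.65, 12.80, 12.72 and 13.00 after Random antisense, a difference of 0.38 (SE 0.16, adjusted p = 0.360). It was 0.20 without AβPP antisense 4 and 0.14 with the beta-actin covariate. Its SAMP8 arrays read 12.88, 12.83, 12.84 and 12.79 and its Control arrays 12.84, 12.73, 12.77 and 12.70. AβPP antisense lay above SAMP8 by 0.34 (SE 0.16, adjusted p = 0.339) without overlap, by 0.15 without AβPP antisense 4 and by 0.07 with the beta-actin covariate. The other tested probe sets of Atp5k gave smaller differences, all with overlap. They were 0.05 (SE 0.09) and 0.06 (SE 0.09) against SAMP8, and 0.14 (SE 0.09) and 0.13 (SE 0.09) against Random antisense. The small proteolipid Atp5mpl differed by 0.27 (SE 0.12, adjusted p = 0.387) from Random antisense, with overlap.

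Atp5o, which encodes the subunit that links the stalk to the catalytic head, had the smallest p in Random antisense minus SAMP8. It read 12.50, 12.70, 12.63 and 12.68 after Random antisense and 12.88, 12.82, 12.85 and 12.73 in SAMP8, with no overlap (-0.19, SE 0.09, unadjusted p = 0.0411, adjusted p = 1). After AβPP antisense it read 12.67, 12.63, 12.63 and 12.60 and in Control 12.79, 12.74, 12.76 and 12.68. Counting Random antisense 1 as untreated, as its treatment label says, reduced the difference to -0.09. Atp5pb, the stator subunit b, read 14.11, 14.10, 13.99 and 14.09 after Random antisense and 14.04, 14.01, 14.03 and 14.01 in SAMP8, and was the member with the smallest p among those higher after Random antisense (0.05, SE 0.09, adjusted p = 1). It read 13.87, 13.99, 13.92 and 13.98 after AβPP antisense and 14.05, 14.07, 14.03 and 13.74 in Control. Its AβPP antisense values all lay under its Random antisense values, by a mean of 0.13 log2 (-0.13, SE 0.09, adjusted p = 0.602).

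In the catalytic head, the beta subunit Atp5b read 14.19, 14.33, 14.29 and 13.51 after AβPP antisense and 14.31, 14.36, 14.31 and 14.28 after Random antisense. The difference of -0.23 (SE 0.16, adjusted p = 0.592) had AβPP antisense 4 as its low array and was -0.04 without it. The alpha subunit Atp5a1 read 13.49, 13.54, 13.52 and 13.92 after AβPP antisense, so that the same array was its highest, and its mean differed by 0.01 (SE 0.12) from Random antisense. The gamma subunit Atp5c1 read 13.07, 12.83, 13.00 and 12.67 after AβPP antisense and 13.15, 13.07, 13.27 and 13.09 in SAMP8, with no overlap and a difference of -0.25 (SE 0.11, adjusted p = 0.303). After Random antisense it read 12.85, 13.03, 12.95 and 12.98, which differed by -0.19 from SAMP8. AβPP antisense minus Random antisense was -0.06, and 0.014 without AβPP antisense 4.

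**Figure D3:**
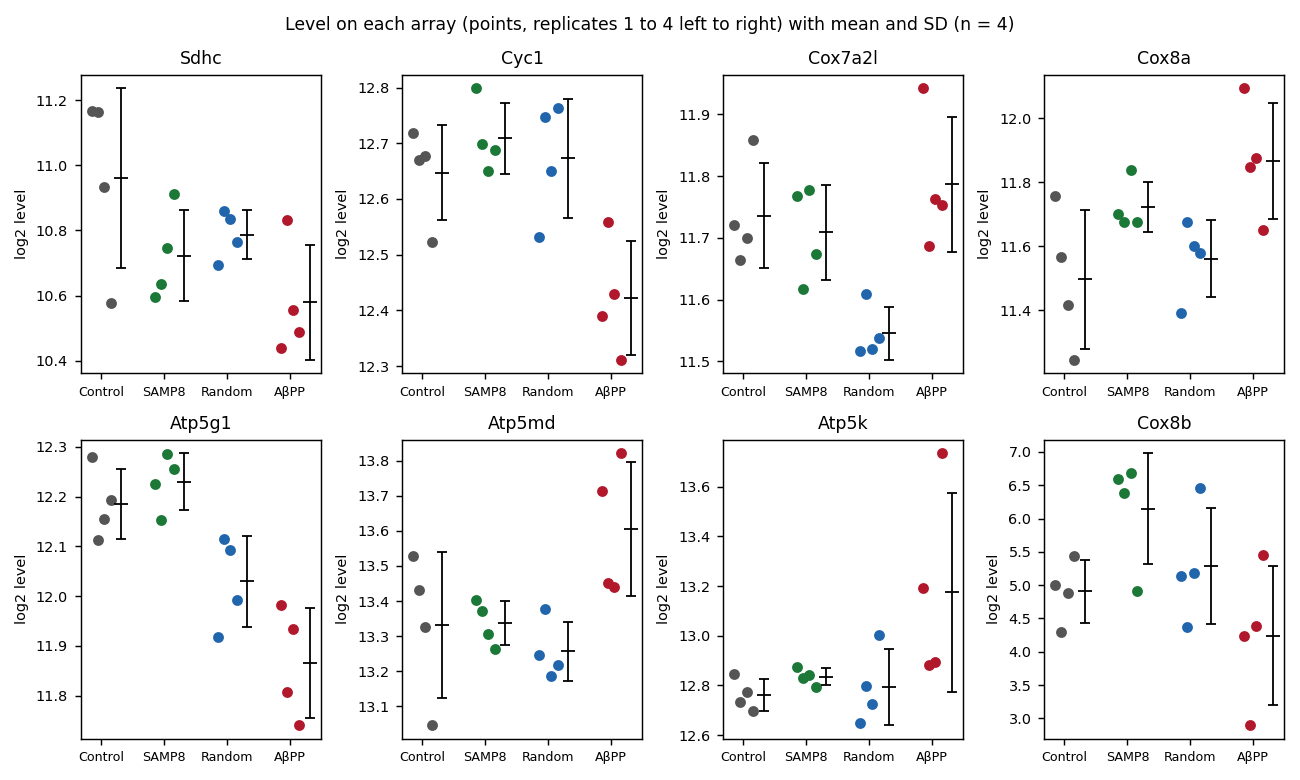
Log2 level (y axis, a different range in each panel) of 8 subunit genes in the 4 groups, with 1 point per mouse and the mean and SD (n = 4) as a bar beside the points. Atp5md and Cox7a2l show all AβPP antisense points above all Random antisense points, Cyc1 and Atp5g1 show them below all untreated SAMP8 points, and Cox8b spans a wider range than the others.

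Among the 45 genes tested, the most uneven split of signs was in Random antisense minus SAMP8, where 40 of 45 were lower, among them all 9 of complex III, 16 of 17 of complex V, 11 of 14 of complex IV and 3 of 4 of complex II. Their median difference was -0.11, against -0.01 for all probe sets tested, of which 52.9% were lower, -0.01 for all 11464 genes by 1 probe set each and -0.03 for the 2497 probe sets of mean over 11 log2. All Random antisense values lay under all SAMP8 values for 7 of 45 members (Atp5o, Atp5g1, Sdhd, Sdhb, Uqcrh, Atp5c1 and Cox7a2l), where 4.2% of all probe sets did so, and all above for 0, against 3.91% (8.1% in either direction). Of the 2497 probe sets over 11 log2, 213 lay wholly under and 114 wholly above, against 6 and 0 of the 38 members over that level. Of those 2497 probe sets 60.35% were lower, as were 35 of the 38 members. Random antisense 1, the array with the conflicting treatment label, was the lowest of all 16 arrays for 12 members. Without it 37 were lower (median -0.08), and counted as untreated SAMP8 it left 35 lower (median -0.05). The means of 2 marker lists did not overlap in this comparison either: 6 thalamus genes lay at 8.85 to 9.52 after Random antisense and 9.61 to 9.72 in SAMP8, and 8 neuronal genes at 12.99 to 13.06 and 12.89 to 12.95. Among the neuronal genes Syt1, Stmn2 and Nefl had lower group means after Random antisense and the others had higher ones. The largest rise was that of Slc17a7, with 11.4 against 10.85. The part of the 2 lists in the split of signs was not tested. Each gene was measured on the same mice, so the 45 signs are not separate observations, and 0 of the 45 differences passed the test.

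AβPP antisense minus Random antisense had the opposite balance, with 30 higher and 15 lower and a median of 0.10. The median was 0.01 for all probe sets, 0.04 for all 11464 genes by 1 probe set each, of which 56.8% were higher, and -0.04 for the probe sets over 11 log2. It shares its Random antisense arrays with the comparison above. Without AβPP antisense 4 the median was 0.05. The groups were free of overlap for 4 of 45 members that were higher (Atp5md, Cox7a2l, Uqcrh and Cox6b1), where 3.87% of all probe sets were, and for 1 that was lower (Atp5pb), where 3.71% were (7.58% in either direction). Of the 2497 probe sets over 11 log2, 179 were wholly higher and 107 wholly lower, against 4 and 1 of the 38 members over that level. Of the 9 members at an unadjusted p under 0.05, 8 were higher (Atp5md, Cox7a2l, Cox8a, Atp5k, Atp5mpl, Uqcrh, Cox6b1 and Uqcrb) and Cyc1 was lower. Other values moved with this comparison. The 3′ minus 5′ difference of beta-actin was 2.08 ± 1.23 (SD, n = 4) after AβPP antisense and 1.27 ± 0.06 after Random antisense (two-sided exact permutation p = 0.143). That of Gapdh was 0.21 against -0.34 (exact permutation p = 0.0857). Each array's median correlation with the rest averaged 0.95 against 0.99 (exact permutation p = 0.0286). The leukocyte mean lay at 6.95 to 7.49 against 6.27 to 6.78, and the choroid plexus mean at 4.53 to 6.70 against 7.06 to 8.26. The part of these in the members' values was not tested. With the beta-actin difference as a covariate the median was 0.04.

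In AβPP antisense minus SAMP8 18 members were higher and 27 lower, with a median of -0.01 against 0.00 for all probe sets and 0.03 for all genes by 1 probe set each. This balance depended on scaling: with each array centred on its median 27 were higher and 18 lower, and after a second quantile normalization 25 and 20. Of the 45 members 7 lay wholly under SAMP8 (Atp5g1, Cyc1, Uqcrfs1, Atp5c1, Atp5o, Atp5g3 and Atp5pb), where 4.41% of all probe sets did, and 2 wholly above (Atp5md and Atp5k), where 3.55% did (7.96% in either direction). Of the 2497 probe sets over 11 log2, 155 lay wholly under and 109 wholly above, against 7 and 2 of the 38 members over that level. Other values moved with this comparison, and their part was not tested. The thalamus mean lay at 7.71 to 9.49 after AβPP antisense against 9.61 to 9.72, the choroid plexus mean at 4.53 to 6.70 against 7.58 to 8.84 and the leukocyte mean at 6.95 to 7.49 against 6.63 to 6.74. The beta-actin 3′ minus 5′ difference was 2.08 against 1.17 (two-sided exact permutation p = 0.0857), and each array's median correlation with the rest averaged 0.95 against 0.99 (exact permutation p = 0.0286). At an unadjusted p under 0.05, 7 members were lower (Atp5g1, Cox8b, Cyc1, Uqcrfs1, Atp5c1, Sdhd and Atp5o) and 2 higher. The second probe sets of Atp5o and Sdhd had the opposite sign here. They gave 0.35 (SE 0.17, adjusted p = 0.356) and 0.30 (SE 0.15, adjusted p = 0.373), with AβPP antisense 4 as the highest array of each. Those of Atp5c1 and Atp5g1, given below, were also of opposite sign. In SAMP8 minus Control 31 were higher and 14 lower, with a median of 0.05 against 0.04 for all probe sets, of which 41.6% were lower. Without Control 4 that median was 0.01. In that comparison 0 of 45 were free of overlap, against 4.81% of all probe sets, with 3.23% wholly above and 1.59% wholly below. Of the 2497 probe sets over 11 log2, 79 lay wholly above and 20 wholly below.

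**Figure D4:**
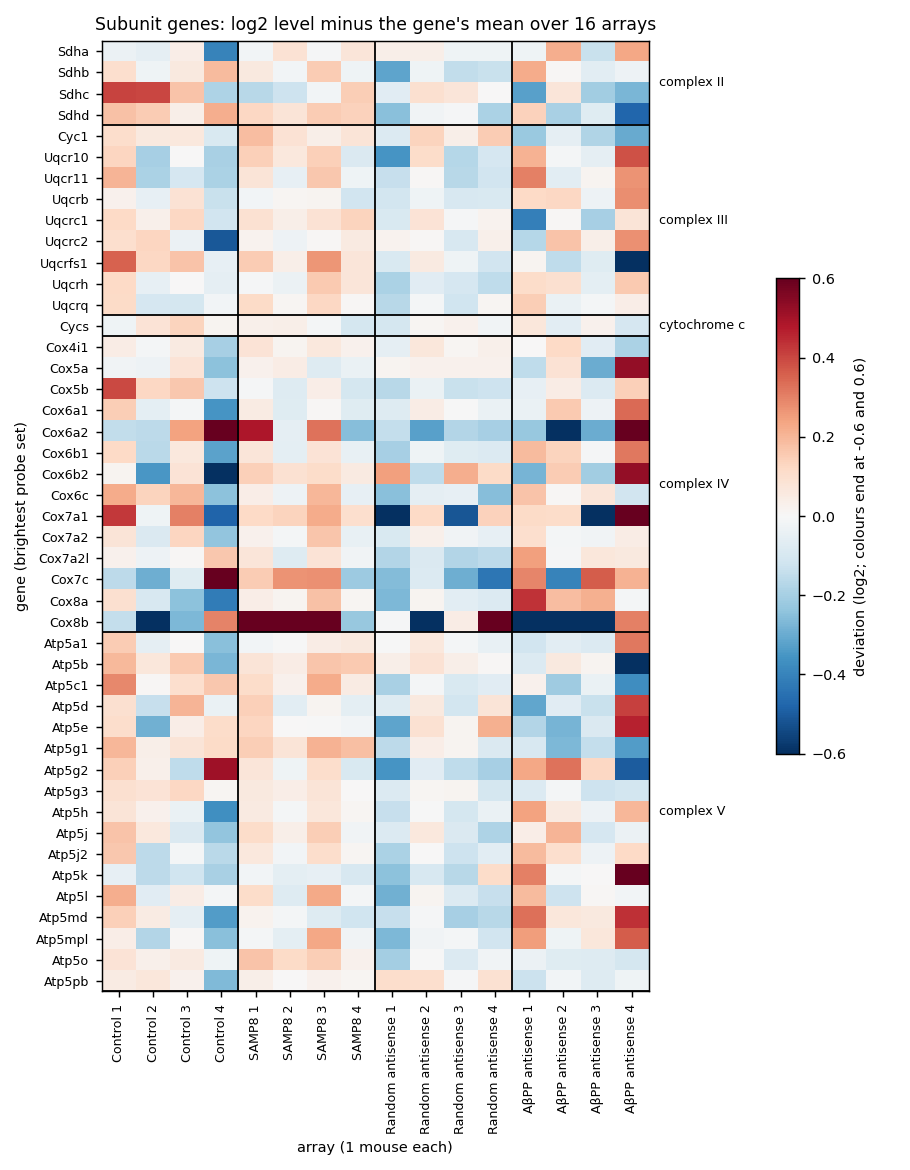
Each tested subunit gene (rows, grouped by complex) on each of the 16 arrays (columns, 1 mouse each), as log2 level minus the gene's mean over the arrays, with colours ending at 0.6 above and below. Control 4 is the lowest column for 14 genes and Random antisense 1 for 12, and AβPP antisense 4 is the highest for 16. The Cox8b row is dark red on SAMP8 1 to 3 and Random antisense 4. It is dark blue on AβPP antisense 1 to 3, Control 2 and Random antisense 2.

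The spread among mice differed between groups. The median SD of the 45 genes was 0.17 in Control, 0.07 in SAMP8, 0.08 after Random antisense and 0.18 after AβPP antisense, and for all probe sets tested it was 0.29, 0.13, 0.12 and 0.39. The largest SD of the 4 groups belonged to AβPP antisense for 23 genes, to Control for 18, to Random antisense for 3 and to SAMP8 for 1. Leaving out replicate 4 brought the median SD to 0.11 in Control and to 0.13 after AβPP antisense. AβPP antisense 4 was the highest of all 16 arrays for 16 genes and the lowest for 7, with a median deviation of 0.25 for complex IV, 0.16 for complex III, -0.01 for complex V and -0.15 for complex II. Control 4 was the lowest of all arrays for 14 genes, with a median deviation of -0.24 for complex IV, -0.16 for complex V and -0.11 for complex III and of 0.00 for complex II.

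**Figure D5:**
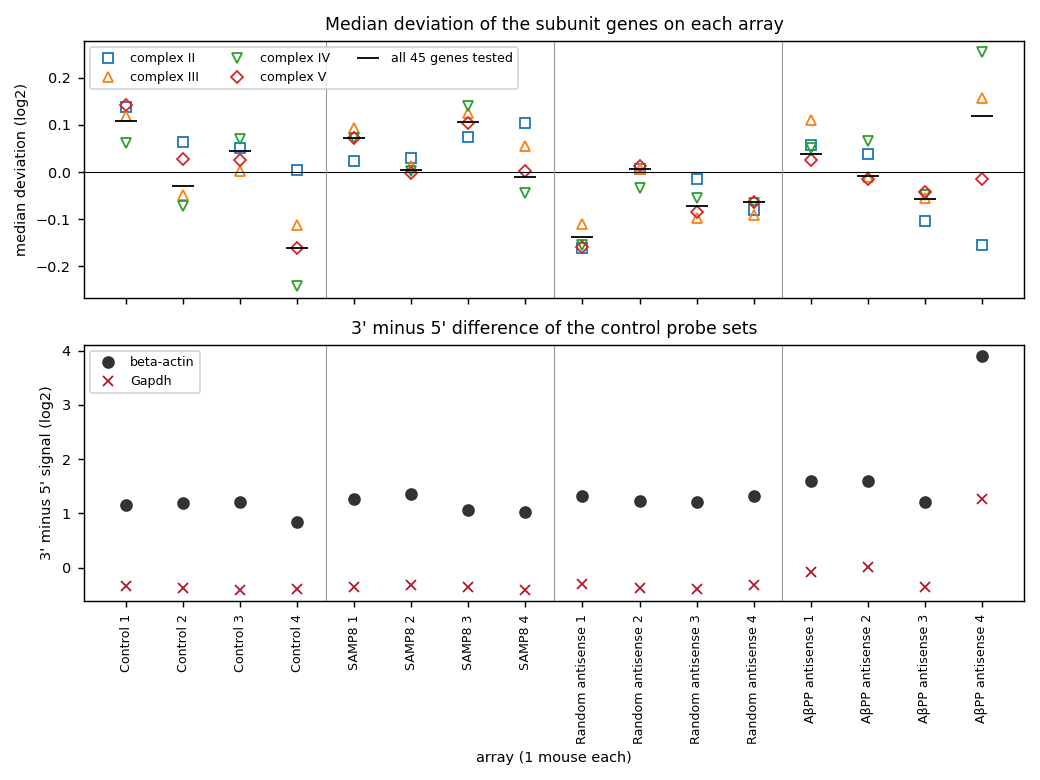
Upper panel, the median deviation (y axis, log2) of the subunit genes of each complex on each array (x axis, 1 mouse each), with the median of all 45 tested genes as a bar; lower panel, the 3′ minus 5′ difference of the beta-actin and Gapdh control probe sets (y axis, log2) on the same arrays. Control 4 has the lowest bar (-0.16) and Random antisense 1 the next (-0.14), and AβPP antisense 4 has the largest spread between complexes and the largest 3′ minus 5′ differences (3.89 and 1.26).

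Of the 45 genes 27 had further tested probe sets, 36 in all, and 0 of these passed the threshold in any comparison. Between 10 and 11 of the 36 had the opposite sign to the brightest probe set of the gene in each comparison. The largest disagreement was in Atp5c1. Its second probe set read 6.91, 6.95, 6.28 and 7.36 after AβPP antisense and 5.80, 5.71, 5.39 and 6.25 in SAMP8, all above, with a difference of 1.09 (SE 0.22, adjusted p = 0.0563) where the brightest probe set gave -0.25. It read 6.22, 6.08, 6.29 and 5.96 after Random antisense and 6.29, 6.36, 5.88 and 6.53 in Control. For Atp5a1 the second probe set gave -0.46 (SE 0.15, adjusted p = 0.202) and the third 0.50 (SE 0.27, adjusted p = 0.403) in AβPP antisense minus SAMP8, against -0.01 for the brightest. On AβPP antisense 4 these read 12.37 and 8.57, the lowest and the highest of their 16 arrays. The second probe set of Atp5g1, at 3.88 to 4.75 log2 and close to the filter, gave 0.01 where the brightest gave -0.36. Which transcripts each probe set detects was not analysed here.

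The other genes of the pathway listed for comparison were mostly assembly factors, carriers and regulators. Also listed were the subunit gene Ndufa4, which was tested, and subunit genes of mitochondrial DNA, which were not matched. Of 63 listed, 1 is a member under another name (Usmg5, now Atp5md), 51 were matched and 45 of these were tested. In each of the 4 comparisons and in the F test 0 of 45 were called, with 3, 4, 0 and 4 at an unadjusted p under 0.05 in SAMP8 minus Control, AβPP antisense minus Random antisense, Random antisense minus SAMP8 and AβPP antisense minus SAMP8. Their balance of signs was 38 of 45 lower in Random antisense minus SAMP8 (median -0.08) and 29 of 45 higher in AβPP antisense minus Random antisense (median 0.08). Lrpprc, which stabilises mitochondrial messenger RNA, had the smallest p in AβPP antisense minus Random antisense, with 8.81 ± 0.26 (SD, n = 4) against 8.40 ± 0.14 and no overlap (0.41, SE 0.14, adjusted p = 0.269). Sdhaf4, an assembly factor of complex II, followed with 0.30 (SE 0.11, adjusted p = 0.304). In AβPP antisense minus SAMP8 the smallest p values belonged to Atpaf1, an assembly factor of the ATP synthase head (-0.37, SE 0.13, adjusted p = 0.234), and Sdhaf2, which helps to attach the flavin to Sdha (-0.40, SE 0.15, adjusted p = 0.246). In SAMP8 minus Control they belonged to Coa5 (0.29, SE 0.12) and Coa3 (0.24, SE 0.11), both assembly factors of complex IV, with adjusted p of 0.999 each. In Random antisense minus SAMP8 they belonged to Cox16 (-0.23, SE 0.11), another complex IV assembly factor, and Sdhaf4 (-0.21, SE 0.11), with adjusted p of 1 each.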

How the data were processed

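The authors deposited log2 values for 45101 probe sets on 16 arrays, and the submitters' processing notes name GCRMA, which corrects background, normalizes between arrays and summarises each probe set. They name no version. The labels describe biotinylated cRNA from 4 µg of a mouse's total RNA. Scanner intensities were not used here, so this step was not repeated. Groups came from the sample titles. Of 45037 probe sets that are not Affymetrix controls, 34945 have 1 gene symbol in the platform's annotation, 932 have several and 9160 have none. Probe sets over 4 log2 on at least 4 arrays (23905) were fitted in limma 3.58.1 (R 4.3.3) as a one-way layout of 4 groups with 12 residual and 2.63 prior degrees of freedom. P values were adjusted by the Benjamini-Hochberg method over all of them, with a threshold of 0.05. The number of arrays limits the precision of each value.

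Values on every array are given for the 3 members of smallest p in each direction of each comparison and for several isoforms. Members whose probe sets disagree most are given in part. Uqcrfs1, Uqcrh, Cox6b1, Atp5b and Atp5mpl were added after their values were seen, by the arrays of some groups or by differences alone. The members and lists were chosen with earlier results of these data known. Promoter windows were cut from RefSeq's table of GRCm38.p6. Replicate numbers recur across groups, but deviations of same-numbered arrays correlated between -0.275 and 0.236, over 0.1 in 8 of 24 pairs, so they were not taken as pairs. The labels give no batch. Alternatives covered the filter, scaling, arrays left out, array weights, moderation, the block, RNA quality, the label of Random antisense 1 and the probe set per gene. Python 3.11.15 and matplotlib 3.10.9 were used for the rest.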

Additional observations from a re-analysis of the deposited data

Results flagged for a closer look

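Among the 4 arrays of a group, 3 of 68 checks found 1 array far from the other 3, where chance gives about 1 in 20. The checks covered the 16 genes named by the rule and the median deviation of the 45 tested members. App was not checked. Atp5pb read 13.74 on Control 4, against 14.03 to 14.07 on the other Control arrays. It read 13.99 on Random antisense 3, against 14.09 to 14.11 on the other arrays of that group. Cox8b read 4.92 on SAMP8 4, against 6.39 to 6.68 on the other untreated SAMP8 arrays.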

How the results depend on the processing

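Across the alternatives run, 144 counts of members called were 0 as reported and 5 moved. Over 28 alternatives the median difference of the members ranged from 0.005 to 0.081 in SAMP8 minus Control, from 0.037 to 0.135 in AβPP antisense minus Random antisense, from -0.131 to -0.046 in Random antisense minus SAMP8 and, with both signs, from -0.036 to 0.038 in AβPP antisense minus SAMP8. In AβPP antisense minus SAMP8, where 0 members were called, 1 was called without Control 4 and AβPP antisense 4 (Cox8b, -2.311) and 1 without moderation of the spread (Atp5g1, -0.364, adjusted p = 0.0458). Leaving out 1 array at a time gave 0 to 1 there (Atp5g1, -0.387, without AβPP antisense 3). In the F test, array weights gave 9 members (Atp5g1, Atp5c1, Atp5o, Sdhd, Uqcrc1, Sdhc, Cox8b, Uqcrfs1 and Cox5b), where 2412 of all probe sets were called in place of 203, and the fit without moderation gave 1. The cause of these moves was not tested. For single genes 697 values kept their direction and side of the threshold and 9 changed sign, all with another probe set: Cycs in SAMP8 minus Control (0.013 for the mean of probe sets, 0.041 for the second), Atp5g1 in AβPP antisense minus Random antisense (0.008 and 0.179) and minus SAMP8 (0.012, second), and in Random antisense minus SAMP8 Atp5pb (-0.076 and -0.205), Atp5o (0.138, second) and Sdhd (0.105, second). With the replicate number as a block, 0 members were called in each comparison, the smallest adjusted p in AβPP antisense minus SAMP8 being 0.147, so the block changed no call.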
